A study of Mus musculus with 2 samples.

Results

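Tubulin isotypes are the alternative alpha- and beta-tubulin genes of one genome. The 10 genes described here were the alpha members Tuba1a, Tuba1b, Tuba1c, Tuba4a and Tuba8 and the beta members Tubb2a, Tubb3, Tubb4b, Tubb5 and Tubb6. They were chosen by symbol, through the GENCODE mouse annotation, and all 10 were found among the 43346 gene rows of the gene tables. The tables came from poly(A) RNA sequencing of G1E-ER4, an immortalized mouse erythroid line in which an estradiol-activated form of the transcription factor GATA1 replaces the missing endogenous one. Both libraries, labelled biological replicates 1 and 2, came from cells exposed to 10 nM 17beta-estradiol for 30 h. They form 1 group with no untreated cells among the libraries used, so levels, proportions and the difference between the 2 libraries can be given, but no effect of estradiol. Whether the replicates came from separate cultures is not stated beyond the word biological, so their spread may be partly technical. Gene rows held 73681318 expected counts (estimated fragment counts) in replicate 1 and 56056404 in replicate 2. All 8 erythroid marker genes reached 1 TPM in both libraries, beside 35.3% of protein-coding gene rows. One of the 8 is Gata1, of which these cells carry an introduced form, and the origin of its counts was not tested. The lowest of the 8, Epb42, had 1.5 and 1.05 TPM in replicates 1 and 2. TPM is transcript abundance per unit length, brought to one common total in every library.

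One alpha and one beta subunit fold together into the dimer from which microtubules are built. The isotypes are nearly alike over most of the protein and differ mainly in the acidic tail at the carboxyl end, which projects from the microtubule and is where glutamate chains are added and where, in alpha-tubulin, a terminal tyrosine is removed and restored. In the erythroid lineage microtubules form the spindle of the last divisions and are largely lost from the mature mammalian red cell. Tubulin mRNA is also under a feedback control in which the ribosome-associated factor TTC5 recognises the beginning of a nascent tubulin chain when free dimers are in excess.

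The coding ends of 5 members show how the tails differ. Each line gives the last 45 coding bases before the stop codon, 5′ to 3′ on the coding strand, from GENCODE M21 transcripts on GRCm38 (mm10), with glutamate codons in capitals.
Tubb4b: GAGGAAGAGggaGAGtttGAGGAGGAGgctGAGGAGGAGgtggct
Tubb5: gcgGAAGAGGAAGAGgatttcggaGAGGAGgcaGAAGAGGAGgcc
Tuba4a: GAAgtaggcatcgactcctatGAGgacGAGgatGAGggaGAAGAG
Tuba1c: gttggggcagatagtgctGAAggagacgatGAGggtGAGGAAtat
Tubb3: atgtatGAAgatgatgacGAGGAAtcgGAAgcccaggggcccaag
Of these last 15 codons, 10 encode glutamate in Tubb4b, 9 in Tubb5, 6 in Tuba4a, and 4 in Tuba1c and Tubb3. Tuba1c ends in the tyrosine codon tat, whereas Tuba4a ends in the glutamate codon gag and encodes no terminal tyrosine. Tubb4b and Tubb5 differ at 16 of these 45 bases. Coding starts were alike within each family. The 5 alpha members begin with codons for methionine, arginine, glutamate and cysteine, and the 4 beta members whose sequence was read begin with methionine, arginine, glutamate and isoleucine, the residues read in the feedback control. The starts of the leading member of each family are shown, with the codon that sets alpha apart from beta in capitals. That of Tuba4a is from ENSMUST00000186213, which took 0.71% and 1.12% of the gene's TPM in replicates 1 and 2, because the transcript with the largest share has no annotated start codon.
Tuba4a: atgcgcgagTGC
Tubb4b: atgagggagATC

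Tubulin message in these cells was mostly Tubb4b and Tuba4a. Tubb4b, a broadly expressed beta-tubulin that is also abundant in ciliated cells, stood at 691 and 493 TPM in replicates 1 and 2. Its mean of 592 ± 141 TPM (SD, n = 2) placed it at rank 172 of 21474 protein-coding gene rows. Tuba4a, the alpha-tubulin known for its high level in platelets, had 199 and 137 TPM in replicates 1 and 2, a mean of 168 ± 43.2 TPM (SD, n = 2) and rank 622. Both were higher in replicate 1, and the lower Tubb4b value lay above the higher Tuba4a value. Together these 2 genes held 76.9% of the members' summed TPM in each library.

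Tubb5, Tuba1b, Tuba1c and Tubb2a followed at lower levels. Tubb5, the beta-tubulin usual in dividing cells, had 111 and 67.5 TPM in replicates 1 and 2. Tuba1b, a widely expressed alpha-tubulin, had 72.5 and 43.1 TPM in replicates 1 and 2. The Tubb5 and Tuba1b values overlapped between libraries, although Tubb5 was 1.53-fold and 1.57-fold above Tuba1b within replicates 1 and 2. Tuba1c, close to Tuba1b in sequence, was at 35.4 and 41.3 TPM in replicates 1 and 2, the only member with at least 10 TPM in both libraries that was lower in replicate 1. Tubb2a, a beta-tubulin abundant in brain, was at 29.7 and 21.7 TPM in replicates 1 and 2.

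The remaining members were near or below 10 TPM. Tuba1a, the main alpha-tubulin of developing neurons, had 10.8 and 8.46 TPM in replicates 1 and 2. Tubb3, the beta-tubulin used as a marker of neurons, had 7.17 and 7.21 TPM in replicates 1 and 2, out of 915 and 700 counts. Tubb3 is therefore a detected gene at rank 5089, while 6 of 8 other neuron markers, among them Rbfox3, Dcx and Snap25, had 0 counts in both libraries and the list summed to 0.42 and 0.52 TPM in replicates 1 and 2. Tubb6 had 7 counts in replicate 1 and 1 in replicate 2. Tuba8, an alpha-tubulin of testis and striated muscle, had 0 counts in replicate 1, which allows up to 0.0194 TPM from counting alone, and 3 counts in replicate 2. Of 6 testis markers 5 were at 0 in both libraries.

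**Figure D1:**
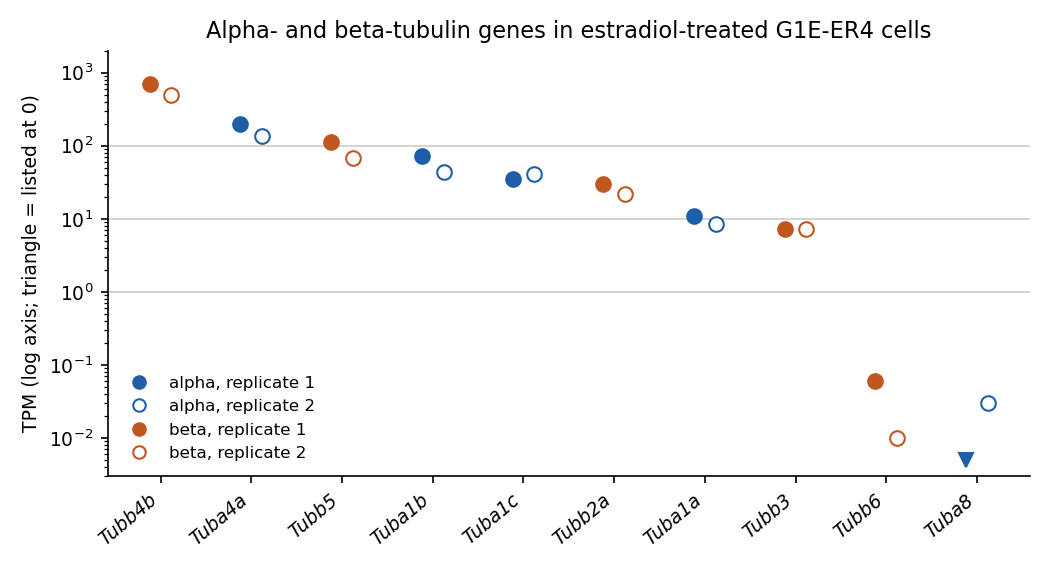
TPM of the 10 alpha- (blue) and beta-tubulin (orange) genes on a log axis, ordered by mean, with filled points for replicate 1 and open points for replicate 2. Tubb4b lies highest at 691 and 493 TPM, and Tubb6 and Tuba8 lie below 0.1 TPM.

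In this order 7 of 9 neighbouring pairs were separated, meaning that both libraries of the higher gene lay above both libraries of the lower. The exceptions were Tubb5 with Tuba1b and Tubb6 with Tuba8. The order within the library was the same in both libraries for 8 of 9 pairs. In all, 8 of 10 members reached 1 TPM in both libraries, beside 35.3% of protein-coding gene rows, 6 of 10 reached 10 TPM, beside 20.4%, and 2 of 10 reached 100 TPM, beside 4.32%. No test of this order is given for 2 libraries.

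The members lie on several chromosomes (GRCm38, 1-based, gene spans of GENCODE M21). Tubb4b spans 25222160 to 25224702 on the minus strand of chromosome 2, and Tuba4a spans 75214228 to 75219865 on the minus strand of chromosome 1. Tuba1b (98931425 to 98934565, minus strand), Tuba1a (98949837 to 98953703, minus strand) and Tuba1c (99029891 to 99038110, plus strand) are neighbours on chromosome 15. Tubb5 lies on chromosome 17 at 35833921 to 35838306, minus strand, and Tubb2a on chromosome 13 at 34074274 to 34078007, minus strand.

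Beta messages outnumbered alpha messages. The alpha members summed to 317 and 230.3 TPM in replicates 1 and 2, and the beta members to 840 and 589 TPM in replicates 1 and 2. The alpha over beta ratio was 0.378 in replicate 1 and 0.391 in replicate 2, or a log2 ratio of −1.38 ± 0.0348 (SD, n = 2). This ratio compares messages within a library and says nothing of protein, which is made as equal numbers of both subunits in the dimer. All members together took 0.116% of TPM in replicate 1 and 0.0819% in replicate 2.

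Each family was led by one gene. Tuba4a, with all its annotated transcripts counted, held 62.6% of alpha TPM in replicate 1 and 59.7% in replicate 2. Tuba1b followed with 22.9% and 18.7%, Tuba1c with 11.2% and 17.9%, and Tuba1a with 3.39% and 3.67%, in replicates 1 and 2. Messages of the Tuba1 genes, whose proteins end in tyrosine, were therefore 37.4% of alpha TPM in replicate 1 and 40.3% in replicate 2. Tubb4b held 82.3% of beta TPM in replicate 1 and 83.6% in replicate 2. Tubb5 held 13.3% and 11.5%, Tubb2a 3.53% and 3.69%, and Tubb3 0.854% and 1.22%, in replicates 1 and 2. The leading shares moved by less than 3 percentage points between libraries, and the largest move was that of Tuba1c.

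**Figure D2:**
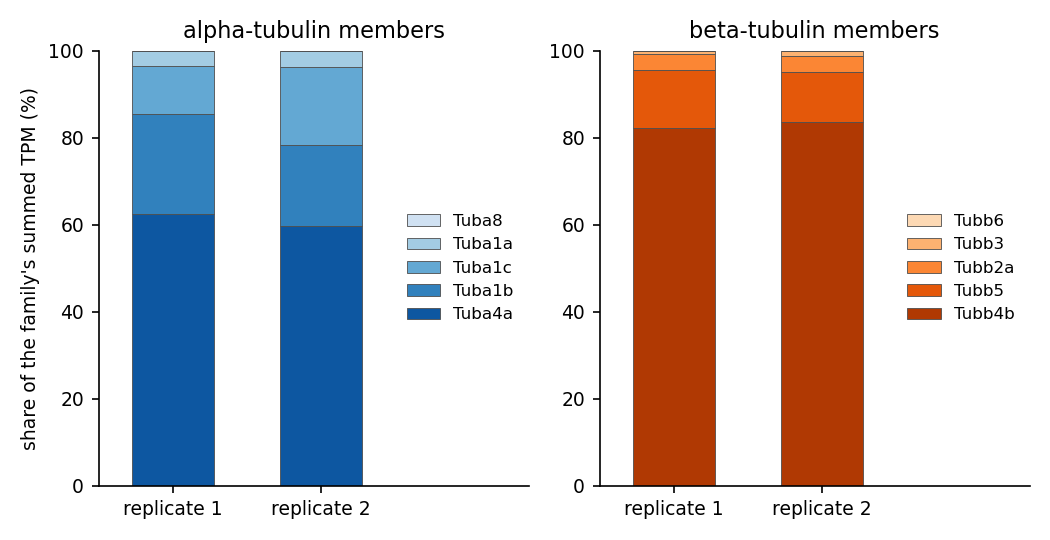
Share of each family's summed TPM (percent, bars from 0 to 100) held by each alpha (left) and beta member (right) in replicates 1 and 2. Tuba4a holds 62.6% and 59.7% of alpha and Tubb4b 82.3% and 83.6% of beta.

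Reads of close copies can only be divided by estimation, and the members differ widely in how far this touches them. Words of 50 bases were read from 1 transcript of each member, that with the longest full coding sequence. They were compared with all GENCODE M21 transcripts, whereas the deposited estimates used GENCODE M4. Of 27 other genes that share words with members, 15 have a gene row here. The shares can therefore include copies that took no part in the deposited estimates. Of the words of Tuba1b, 73.8% also occur in transcripts of another gene, against 72.9% for Tuba1a, 61.0% for Tuba1c, 50.9% for Tubb4b and 49.6% for Tubb2a. The share was 1.11% for Tuba4a, 0.115% for Tubb5 and 0 for Tubb3. For Tuba4a the transcript read was ENSMUST00000186213, which took 0.71% and 1.12% of the gene's TPM in replicates 1 and 2. The coding sequences of Tuba1a and Tuba1b are 98.3% identical and their proteins differ at 2 residues, while Tuba4a is 85.0% identical to Tuba1b in coding sequence. The authors' deposited posterior SD of the count, set against the posterior mean count, was 3.14% and 3.54% for Tuba1a, 0.926% and 1.28% for Tuba1b, 1.19% and 1.11% for Tuba1c, and 0.454% and 1.01% for Tubb2a in replicates 1 and 2. It was 0.00332% and 0.00589% for Tubb4b in replicates 1 and 2, and 0 for Tuba4a, Tubb5 and Tubb3. Summed over Tuba1a, Tuba1b and Tuba1c, the counts, which do not depend on the split among these 3 genes, were 14592 and 8852 in replicates 1 and 2, and the TPM, which depends on it through their lengths, was 119 and 92.9.

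Processed pseudogenes also carried counts. Of 10 pseudogenes in the tables that share words with a member, 6 had more than 3 counts in both libraries. Gm17383, a copy sharing words with the Tuba1 genes, had 43.7 and 30.0 TPM in replicates 1 and 2, above Tuba1a in both. Each such pseudogene was also counted with the family whose words it shares. This would lower the share of Tuba4a to 53.4% of the alpha sum as a mean of both libraries. It would bring the log2 alpha over beta ratio to −1.19. Whether these counts came from transcribed pseudogenes or from reads of the parent genes was not tested.

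The transcript tables divide each gene's TPM among its annotated transcripts (IsoPct, in percent). Among the 5 members with at least 2 transcripts and 1 TPM in both libraries, the leading transcript was the same in both libraries for all 5, beside 5083 of 5714 (89.0%) protein-coding genes under the same conditions. Tuba4a was the most divided. Its leading transcript, ENSMUST00000079464, took 65.2% in replicate 1 and 61.4% in replicate 2, and ENSMUST00000188593 took 25.4% and 29.1%. The leading form starts at a first exon of 89 bases inside the first intron of ENSMUST00000186213, the transcript with the full reading frame of 448 residues, and GENCODE M21 annotates its coding sequence without a start codon. The second form lacks the first exon and the third exon, of 149 bases, of that transcript. Its annotated coding sequence has 225 bases, against 1344 in ENSMUST00000186213. That of the leading form has 1430 bases and an annotated stop codon. Of the exons of ENSMUST00000186213, only the first, of 102 bases, is wholly absent from the leading form. ENSMUST00000186971 has 373 coding bases, and ENSMUST00000187103, a retained-intron form, has none annotated. The Tuba4a TPM includes these forms. Alone, the leading form had 130 and 84.4 TPM in replicates 1 and 2, beside 119 and 92.9 TPM for Tuba1a, Tuba1b and Tuba1c summed. Transcripts with an annotated start codon, 4 of 8, held 0.912% of Tuba4a TPM in replicate 1 and 1.28% in replicate 2. These transcripts share exon sequence, so the shares rest on the estimation and on the annotation used.

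Tubb4b was nearly all one form, with a difference between libraries in the minor one. Its protein-coding transcript ENSMUST00000043584 took 94.0% in replicate 1 and 98.6% in replicate 2. The remainder was ENSMUST00000145607, an 831-base processed transcript that keeps the second intron (79 bases) and the first 411 bases of the third intron, which has 565 bases in all. It had 2104 counts in replicate 1 and 252 in replicate 2, a TMM-scaled ratio of 6.05, against 1.28 for the protein-coding transcript. Part of the short form overlaps exons of the long one, so its count is an estimate, and what sets the difference was not tested.

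**Figure D3:**
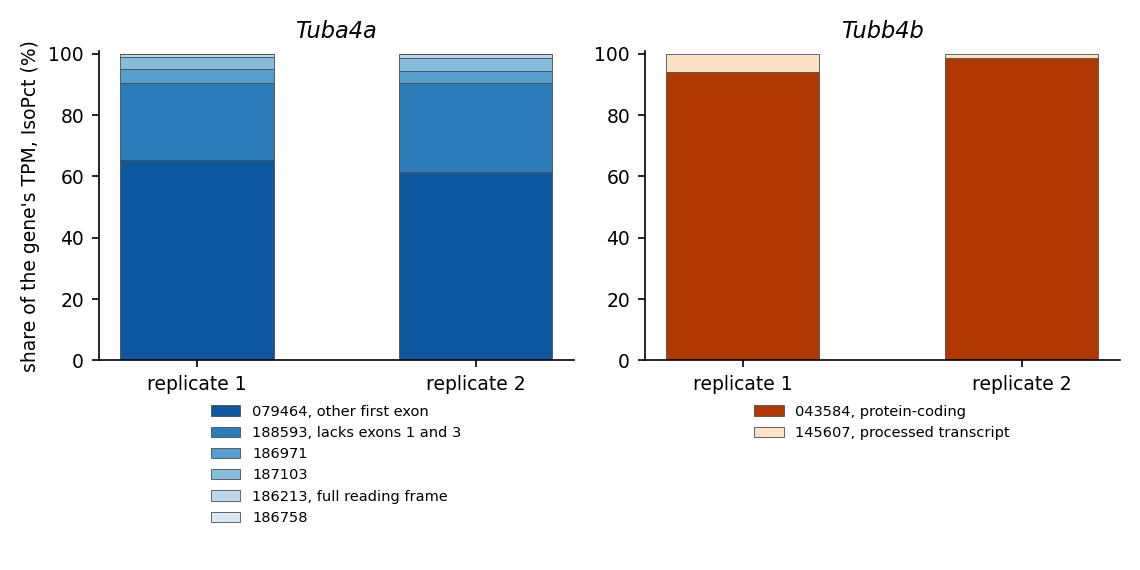
Share of the gene's TPM (IsoPct, percent, bars from 0 to 100) given to each transcript of Tuba4a (left) and Tubb4b (right) in replicates 1 and 2. Transcript ENSMUST00000079464 leads Tuba4a at 65.2% and 61.4%, and the processed transcript of Tubb4b takes 6.04% and 1.36%.

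Between the 2 libraries most members were higher in replicate 1. Ratios are replicate 1 over replicate 2 of expected counts after TMM scaling (edgeR), for genes with at least 20 counts in sum, with exact 95% intervals that cover counting error only; they compare these 2 libraries and no conditions. Of the 8 members with a ratio, 2 were past 1.5-fold, both higher in replicate 1. Over all 10445 genes with a ratio, 15.8% were past 1.5-fold, 10.7% higher and 5.16% lower in replicate 1. Tuba1b had 8582 counts in replicate 1 and 3870 in replicate 2, a ratio of 1.61 (1.55 to 1.67). Tubb5 had 20676 counts in replicate 1 and 9563 in replicate 2, a ratio of 1.57 (1.53 to 1.61). Tuba4a followed at 1.40, Tubb4b and Tubb2a at 1.31 each and Tuba1a at 1.22, while Tubb3 was at 0.948 (0.858 to 1.05) and Tuba1c at 0.818 (0.784 to 0.852). The interval of Tubb3 includes 1, and those of the other 7 do not.

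The median log2 ratio of the 8 members was 0.39, against 0.01 over all genes. Of the 8 ratios 6 were above 1, beside 51.2% of all genes with a ratio. The opposite moves of Tuba1b and Tuba1c concern genes that share most of their words. Summed with Tuba1a the 3 genes had a ratio of 1.20 (1.16 to 1.23), so that 1 item, Tubb5, is past 1.5-fold when they are summed. A curve of the log2 ratio on transcript GC content stood between −0.10 and 0.02 at the GC content of the 8 members, and subtracting it left 2 members past 1.5-fold.

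**Figure D4:**
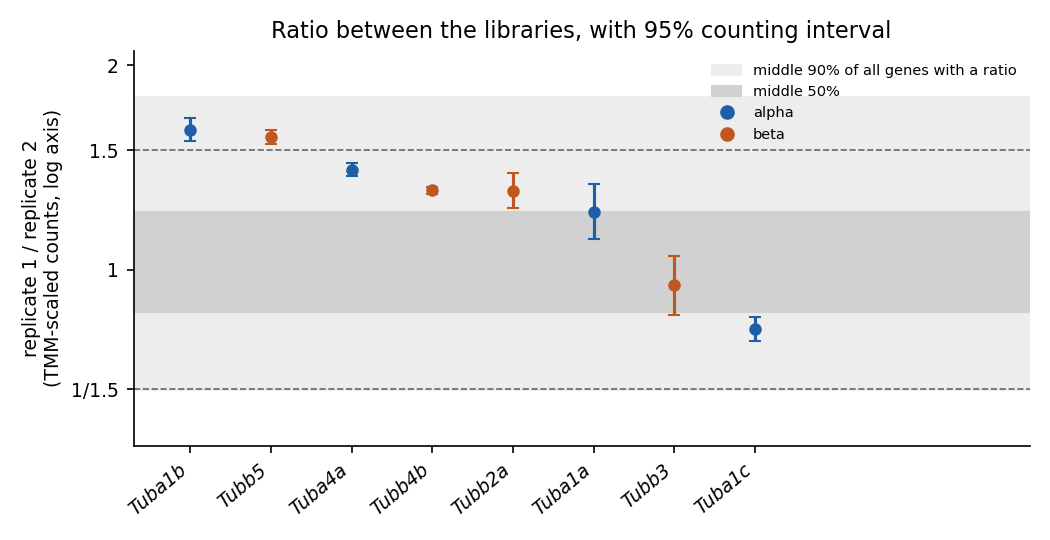
Ratio of replicate 1 over replicate 2 (TMM-scaled counts, log axis) for the 8 members with at least 20 summed counts, with 95% counting intervals; grey bands hold the middle 50% and 90% of all genes, and dashed lines mark 1.5-fold in either direction. Tuba1b at 1.61 and Tubb5 at 1.57 lie above the upper line.

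Part of the cell division genes were also higher in replicate 1. Of 17 mitosis genes 6 were past 1.5-fold, all higher in replicate 1, with a median log2 ratio of 0.34, beside the 10.7% of all genes that were past 1.5-fold higher and the overall median of 0.01. The 3 highest were Ccna2 (cyclin A2) at 469 and 502 TPM in replicates 1 and 2, Ube2c, a ubiquitin-conjugating enzyme of mitotic exit, at 353 and 413 TPM, and Cdc20, an activator of the anaphase-promoting complex, at 189 and 174 TPM. None of these 3 was past 1.5-fold, whereas the lowest, the spindle checkpoint kinase gene Ttk, was at a ratio of 1.53. Myeloid markers went the other way, with a summed level of 0.33 and 11.5 TPM in replicates 1 and 2. Of them, 4 of 4 with a ratio were past 1.5-fold lower in replicate 1, beside 5.16% of all genes. One of these was Mpo at 0.19 and 3.96 TPM in replicates 1 and 2. Fewer cells of a type and less RNA per cell cannot be told apart in bulk samples, and the part of either group in the tubulin ratios was not tested.

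Other tubulin genes were few. Tubg1, the gamma-tubulin that nucleates microtubules, had 74.7 and 79.4 TPM in replicates 1 and 2, between Tubb5 and Tuba1b in mean level, and Tubg2 had 1 count in all. Tubb1, the divergent beta-tubulin of megakaryocytes and platelets, had 10.2 and 6.65 TPM in replicates 1 and 2, above Tubb3 in mean level. Of 8 megakaryocyte markers, Tubb1 included, 4 reached 1 TPM in both libraries, beside 35.3% of protein-coding gene rows. The list summed to 32.5 and 24.9 TPM in replicates 1 and 2. Tubb2b, 96.5% identical to Tubb2a in coding sequence, had 1.82 and 2.54 TPM in replicates 1 and 2. Tubd1 and Tube1, the delta- and epsilon-tubulins of centrioles, were below 1 TPM in both libraries, Tube1 at 138 and 41 counts with a ratio of 2.44. Tuba3b and Tubb4a had 3 counts each in replicate 1 and none in replicate 2, and Tuba3a and Tubal3 had none in either.

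Genes that fold tubulin were all present. The 14 genes of the cytosolic chaperonin and its delivery factor prefoldin were all at 1 TPM or more in each library, beside 35.3% of protein-coding gene rows. The median level of the 14 genes was 11.8 TPM, averaged over the libraries. Cct4, a chaperonin subunit, had 323 and 322 TPM in replicates 1 and 2, the prefoldin subunits Pfdn6 194 and 203 TPM and Pfdn1 142 and 140 TPM. Such levels depend on the effective length estimated for each gene. Cct7, also of the chaperonin, had 11911 and 8286 counts in replicates 1 and 2, against 9938 and 7340 for Cct4. Its effective length was 2297 and 2280 bases, against 412 and 399 for Cct4, and its level 69.6 and 63.5 TPM. The subunits of this list were not level with each other in TPM. The lowest by mean, Vbp1, another prefoldin subunit, had 2.99 and 1.48 TPM in replicates 1 and 2. It was the 1 gene of the 14 past 1.5-fold (ratio 1.62), beside 15.8% of all genes. All 7 tubulin folding cofactors reached 1 TPM, and none was past 1.5-fold between libraries, beside the same 35.3% and 15.8%. Arl2, a small GTPase that works with them, had 68.3 and 71.0 TPM in replicates 1 and 2, Tbcb 45.9 and 54.6 TPM, Tbcel 17.3 and 15.3 TPM, and the lowest, Tbce, 1.89 and 1.88 TPM. For the feedback control, Ttc5 had 3.97 and 3.56 TPM in replicates 1 and 2, and Scaper, which links it to mRNA decay in human cells, had 10 and 7 counts.

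Genes of enzymes that modify tubulin, and of their partners, differed widely in level. Of 16 genes 11 reached 1 TPM in both libraries, beside 35.3% of protein-coding gene rows. None of the 12 with a ratio was past 1.5-fold, beside 15.8% of all genes. The highest were Sirt2, a deacetylase with tubulin among its substrates, at 581 and 735 TPM in replicates 1 and 2, Svbp, the small partner of the vasohibins, at 439 and 401 TPM, and Ttll12, a member of the tubulin tyrosine ligase-like family, at 184 and 212 TPM. Ttll7 and Vash2 were lowest by mean, with 2 counts each in replicate 1 and none in replicate 2. The following genes, named after their values were seen, act on the terminal tyrosine of the alpha tail. Ttl, the ligase that restores the terminal tyrosine, had 0 counts in replicate 1 and 1 count in replicate 2. From counting alone, 0 counts in replicate 1 allow up to 0.0189 TPM at its effective length there. The deposited upper bounds of its TPM were higher, 0.068 and 0.115 in replicates 1 and 2. Vash1, a vasohibin that removes that tyrosine when bound to Svbp, had 0 counts in replicate 1 and 3 in replicate 2. The leading alpha message here, Tuba4a, encodes no terminal tyrosine, as its coding end shows.

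Of 10 genes of the gamma-tubulin ring complex 8 reached 1 TPM in both libraries, beside 35.3% of protein-coding gene rows. Of the 9 with a ratio, 2 were past 1.5-fold, both higher in replicate 1, beside 10.7% of all genes. Besides Tubg1, the highest were Tubgcp3, a structural subunit, at 58.2 and 64.4 TPM in replicates 1 and 2, and the small subunit gene Mzt1 at 33.3 and 18.9 TPM with a ratio of 1.68. Among 22 genes for microtubule binding, severing and depolymerization, 14 reached 1 TPM in both libraries, beside 35.3% of protein-coding gene rows. Of the 16 with a ratio, 5 were past 1.5-fold higher and 1 past 1.5-fold lower in replicate 1, beside 10.7% and 5.16% of all genes. Stmn1, which binds free tubulin dimers, had 97.8 and 40.7 TPM in replicates 1 and 2, a ratio of 2.32. Kif2a, a kinesin that depolymerizes microtubule ends, had 43.4 and 23.3 TPM with a ratio of 1.60, and Map1s, a microtubule-associated protein, had 43.8 and 44.4 TPM with a ratio of 0.937. Stmn2, Stmn3 and Stmn4, the neuronal stathmins, were at 0 in both libraries.

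**Figure D5:**
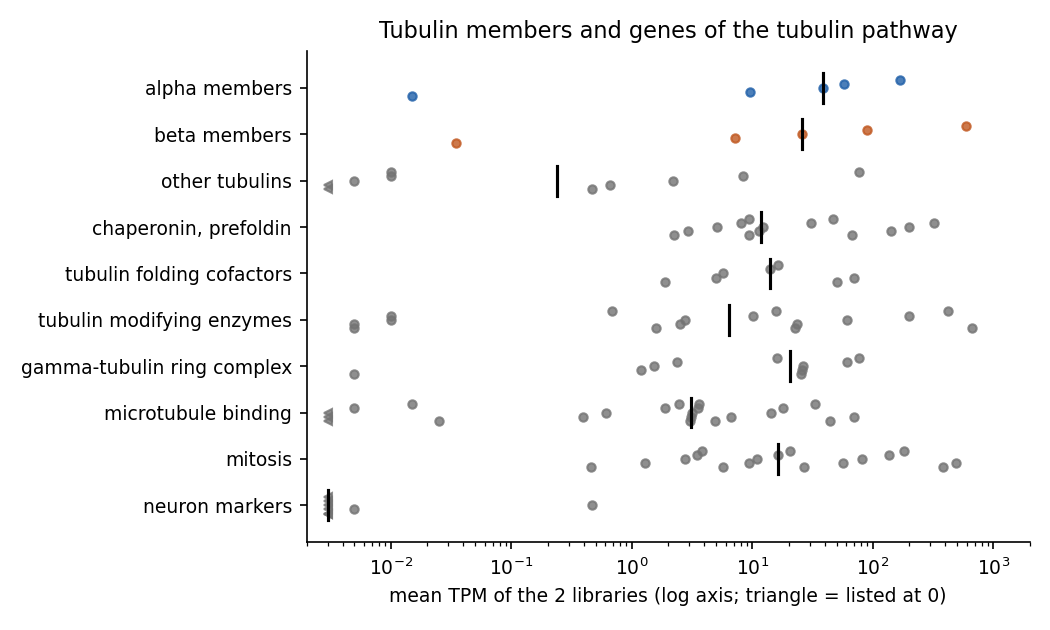
Mean TPM of the 2 libraries (log axis) for each alpha and beta member and each gene of the related lists, with the list median as a black bar and triangles for genes listed at 0. Chaperonin and prefoldin genes have a median of 11.8 TPM, and 6 of 8 neuron markers lie at 0.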

How the data were processed

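Values were taken from the gene and transcript tables of 2 poly(A) RNA-seq libraries of 1 group. Per the file headers, expected counts are the authors' deposited estimates per gene or transcript, whole or not. TPM and FPKM were deposited as values scaled by effective length and by library, per the file headers, and IsoPct is the deposited percent of a gene's TPM given to a transcript. Posterior means and SDs of counts and posterior mean TPM stand beside these in the deposited tables. The deposited description files name the assembly mm10 and GENCODE M4. The aligner, the quantifier and strand handling were not given in the sources used here.

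Gene names, spans, transcripts and coding sequences came from GENCODE M21 on GRCm38, which matched 42462 of 43346 gene rows. Rows named by a number (26248) or otherwise (97) held 5 and 4 counts in replicates 1 and 2 and were left out. Total expected counts were 73681318 and 56056404. A gene at 0 could hold up to 3 counts by chance of counting. Intervals and floors cover counting error only.

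Ratios of replicate 1 over replicate 2 used counts rounded to whole numbers, TMM factors of 1.02 and 0.976 from edgeR 4.0.16, a minimum of 20 summed counts and exact (Clopper-Pearson) 95% intervals from scipy 1.17.1. This step was run on simulated counts with known folds and counting error only. That checks the calculation and not the spread between the real libraries. Shared sequence was measured as 50-base words of 1 transcript per member, that with the longest full coding sequence, found in transcripts of other genes. The GC curve was a lowess fit (statsmodels) over protein-coding genes with at least 100 summed counts. R 4.3.3, Python 3.11.15 and pandas 2.3.3 were used.

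All 10 members are named. Of each list of tubulin-related and mitosis genes, the 3 with the highest mean TPM and the lowest are named, with all other tubulins. Marker lists are given by counts and, for most, summed levels, with few genes named. Ttl, Vash1, Mpo, Cct7, the pseudogenes, some neuron markers and the neuronal stathmins were named after their values were seen. The members and the 13 lists were chosen with earlier results of these data known. Alternatives were FPKM, posterior means, counts not divided by length, GC adjustment, other sums, DESeq2 1.42.0 size factors or library totals, other folds and count minimums, and leaving out each replicate. Adding pseudogenes, subtracting the GC curve from ratios and summing the Tuba1 genes were chosen after seeing the data.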

Additional observations from a re-analysis of the deposited data

Results flagged for a closer look

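Expected counts assigned to processed pseudogenes that share sequence with members stand outside the members' values and exceed the 3 counts that a count of 0 allows in both libraries. Gm17383, which shares words with Tuba1a, Tuba1b and Tuba1c, held 2883 counts in replicate 1 and 1493 in replicate 2. Gm14150 held 103 and 70.6 counts, Gm5620 held 30.7 and 31.9 counts, and Gm6682 held 6.86 and 10.9 counts in replicates 1 and 2, all of them copies related to the same 3 genes. Tubb4b-ps1 held 27.6 and 29.6 counts and Gm16165 held 11.1 and 12.0 counts in replicates 1 and 2, both related to Tubb4b. The origin of these counts was not tested.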

How the results depend on the processing

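No paired analysis was possible because both libraries belong to 1 group. Only the log2 alpha over beta ratio was checked for a reversal, and it kept its sign under all alternatives run. The log2 alpha over beta ratio was −1.38 and came to −1.32 with counts not divided by length and to −1.19 with pseudogenes added. The share of Tuba4a was 61.1% of alpha and came to 53.4% with pseudogenes added. The share of Tubb4b was 83.0% of beta, 75.6% with counts not divided by length and 79.1% with TPM adjusted for GC content. Of members past 1.5-fold between libraries there were 2, 0 at 2-fold, 4 with a minimum of 1 summed count, which adds Tuba8 and Tubb6 with 3 and 8 counts, and 1 with the Tuba1 genes summed. Leaving out each replicate gave −1.40 to −1.35 for the log2 alpha over beta ratio, 59.7% to 62.6% for Tuba4a, 82.3% to 83.6% for Tubb4b, and 6 to 7 members at 10 TPM. Of 44 alternatives for these proportions and counts, 36 stayed within 1 SD or within 1.5 times the count. Part of these could not have moved, so the tally does not measure robustness. With 2 libraries, leaving either out always keeps the ratio and the shares within 1 SD of the mean. FPKM is proportional to TPM within a library, so it gives the same ratio and shares. With 2 libraries an SD is itself poorly known. Depth limits Tuba8 and Tubb6, whose levels rest on at most 7 counts in a library.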
